A study of Mus musculus with 18 samples.

Results

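Described here are 10 genes of the mouse Serpina1 and Serpina3 protease inhibitor clusters, chosen by name: Serpina1a, Serpina1b, Serpina1c, Serpina1d, Serpina1e, Serpina3c, Serpina3g, Serpina3k, Serpina3m and Serpina3n. A probe was matched by its accession to 8 of them, 4 of each cluster, among 21153 named genes on the array, and all 8 were among the 19597 genes kept for testing. These 8 genes have 11 probes, because Serpina1a, Serpina1d and Serpina1e have a second one, and no probe was matched to Serpina1b or Serpina3g. All 11 probes lay well above background on each of the 18 arrays, and 0 were saturated. Members with several probes are read on the brightest, and the second probe is given beside it.

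Most serpins are suicide inhibitors of proteases, and the members of these clusters made by hepatocytes are secreted into the blood. The Serpina1 genes of the mouse encode α1-antitrypsin, the main circulating inhibitor of neutrophil elastase, and exist as several near-identical copies side by side. The Serpina3 genes descend from a single ancestor related to human α1-antichymotrypsin, which restrains cathepsin G and chymase, and they have diverged in the reactive loop that decides which protease is caught. Serpina3n is the member best known as an acute phase protein, made by hepatocytes in response to interleukin-6 and other inflammatory signals.

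Liver RNA came from male C57BL/6 mice given, from 6 weeks of age, a diet with 10% of its energy as fat (LFD) or 60% (HFD). After 10 weeks on the diet some mice of each kind received methotrexate, a folate antagonist that blocks nucleotide synthesis, at 50 mg/kg into the peritoneum in 5 rounds, and livers were taken a week after the last (LFD MTX50 and HFD MTX50). The other mice are recorded as untreated, with no mention of a vehicle injection. LFD and HFD held 4 mice each, and LFD MTX50 and HFD MTX50 held 5 each, with 1 array per mouse. Levels are log2 spot intensities relative to the 75th percentile of their array, so that 1 unit is a doubling, and probes of different genes cannot be ranked against each other.

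Neither LFD (1 slide) nor LFD MTX50 (2 slides) shared a slide with another group, so that slide and group cannot be told apart in HFD against LFD, LFD MTX50 against LFD, HFD MTX50 against LFD MTX50 or the difference of treatment effects. A slide held 2 HFD and 2 HFD MTX50 arrays. Between 83.9 and 90.6% of probes per array were well above background. Hepatocyte markers were present on every array, and 6 of the 7 listed were matched to a probe, each above background on all arrays. The unmatched one, transferrin, was listed as Tf, while its probes carry the symbol Trf, and it is left out of the sums. The summed level of the 6 was 9.01 to 9.27 in LFD and 9.18 to 9.40 in LFD MTX50. In HFD it was 8.83 to 9.06, and in HFD MTX50 it was 8.69 to 9.11, without overlap with LFD MTX50. No marker list fell wholly below background. The summed erythroid level was 4.05 to 4.57 in LFD and 0.05 to 0.67 in LFD MTX50. In HFD it was 3.46 to 4.59, and in HFD MTX50 it was 0.46 to 5.88. Of the 5 erythroid markers tested, 3 fell in LFD MTX50, where 10.5% of all genes fell. The summed adipocyte level was -1.47 to -0.93 in LFD, -1.05 to -0.25 in LFD MTX50, 2.06 to 2.74 in HFD and -0.67 to 0.67 in HFD MTX50, so that it did not overlap between HFD and HFD MTX50. In HFD this sum was mostly that of Cfd, at a mean of 2.01 there and -3.31 in HFD MTX50. The part of these markers in the results was not tested. In whole liver RNA, fewer cells of a type and less RNA per cell cannot be told apart.

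The sequences upstream of the start sites are shown because they tell how alike the copies are, and because Serpina3c and Serpina3n, whose windows are close, differ in the results below. RefSeq windows of assembly GRCm38.p6 were found for 8 of the 10 genes, without Serpina3k and Serpina3m, and the 250 bases before each start were compared. The 5 Serpina1 windows were 92.05 to 97.98% identical in pairs over their aligned bases, and they share an unbroken run of 55 bases, which is in capitals in the 2 windows below. The annotated start of Serpina1e lies farther from this run, which spans bases -117 to -63 there and -60 to -6 in Serpina1a.
Serpina1a, minus strand, chr12:103863620-103863869: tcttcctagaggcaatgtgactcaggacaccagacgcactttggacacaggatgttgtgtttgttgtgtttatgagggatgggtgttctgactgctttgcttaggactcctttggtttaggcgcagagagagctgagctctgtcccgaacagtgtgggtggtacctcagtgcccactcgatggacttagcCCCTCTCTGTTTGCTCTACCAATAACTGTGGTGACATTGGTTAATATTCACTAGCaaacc
Serpina1e, minus strand, chr12:103956898-103957147: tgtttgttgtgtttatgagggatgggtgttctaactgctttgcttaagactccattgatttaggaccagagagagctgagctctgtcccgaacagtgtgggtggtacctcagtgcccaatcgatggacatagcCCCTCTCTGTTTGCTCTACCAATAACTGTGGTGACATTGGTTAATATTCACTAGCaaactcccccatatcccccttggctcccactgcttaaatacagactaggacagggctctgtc

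The Serpina3c and Serpina3n windows were 92.7% identical over 247 aligned bases. In each of them 21 bases, in capitals, differ from the partner or fall outside the alignment. The Serpina3g window was 77.4% identical to that of Serpina3c and 75% to that of Serpina3n, over 155 and 152 aligned bases.
Serpina3c, minus strand, chr12:104153873-104154122: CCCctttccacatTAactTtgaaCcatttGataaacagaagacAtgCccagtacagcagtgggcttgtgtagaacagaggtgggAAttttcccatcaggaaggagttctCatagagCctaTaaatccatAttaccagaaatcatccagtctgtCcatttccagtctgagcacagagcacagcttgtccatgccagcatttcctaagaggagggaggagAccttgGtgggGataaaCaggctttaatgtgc
Serpina3n, plus strand, chr12:104406458-104406707: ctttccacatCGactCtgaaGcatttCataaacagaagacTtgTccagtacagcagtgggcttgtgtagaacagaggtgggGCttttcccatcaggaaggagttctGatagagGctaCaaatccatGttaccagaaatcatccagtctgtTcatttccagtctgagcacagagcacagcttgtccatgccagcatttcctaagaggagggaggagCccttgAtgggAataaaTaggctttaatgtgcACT

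Motifs of 4 factors were searched on both strands of these windows. The STAT letters TTCNNNGAA, which read the same on both strands, occurred in 1 of 8 windows, that of Serpina3g at bases -33 to -25, against 7.02% of all 32851 windows. The C/EBP letters TTGCNNAA occurred in 3 of 8 (Serpina1b, Serpina1d and Serpina1e) against 9.56%, and the HNF1 letters GTTAAT, any base and ATT in 0 of 8 against 0.371%. The NF-kB letters GGG, any 5 bases and CC occurred in 7 of 8, all but Serpina3c, against 45.8%. The 5 Serpina1 windows have 1 NF-kB match each and are near-identical copies, so that these counts of windows are not independent. Serpina3n holds 4 such matches, which are overlapping plus and minus strand matches at bases -171 to -161 and -43 to -33. A match of letters describes the window and is not a binding site, and a window without a match says nothing of the factor.

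Serpina3n, an inhibitor of granzyme B and other leukocyte proteases, was the member that rose with methotrexate on the low fat diet. Its level was 1.29, 1.46, 1.36 and 1.25 in the 4 LFD mice and 3.45, 2.83, 2.90, 2.07 and 4.15 in the 5 LFD MTX50 mice. The groups did not overlap, and the lowest treated mouse lay above the highest untreated one. Serpina3n rose by 1.74 ± 0.40 (SE) log2 units, or 3.33-fold, with an adjusted p of 0.00676 by limma. A two-sided exact permutation test of the group means gave p = 0.0159, where this design can reach 0.00794. In this comparison 1 of 8 members passed an adjusted p of 0.05, against 28.1% of all genes tested, and 1 of 8 had an unadjusted p below 0.05, against 41.5%. Groups that do not overlap were also found for 1 of 8 members, against 29.1% of all genes.

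On the high fat diet the treated mice lay further apart. Serpina3n was 1.33, 1.58, 1.64 and 1.60 in the HFD mice and 2.89, 3.50, 1.84, 1.64 and 3.53 in the HFD MTX50 mice. HFD MTX50 mice 1, 2 and 5 stood well above the untreated mice, whereas mice 3 and 4 were close to them. The groups did not overlap, but mouse 4 and the highest untreated mouse were both at 1.64. The difference was 1.15 ± 0.40 log2 units (2.21-fold) with a 95% confidence interval of 0.31 to 1.98. It did not pass, with an adjusted p of 0.0675 by limma and p = 0.0556 in the exact permutation test. Here 0 of 8 members passed, against 11% of all genes. Serpina3n was the 1 of 8 with an unadjusted p below 0.05, against 30.8% of all genes, and the 1 of 8 whose groups did not overlap, against 11.4%. Without HFD MTX50 mouse 3, HFD MTX50 mouse 4 or LFD MTX50 mouse 5, the difference passed with an adjusted p of 0.0441, 0.0339 or 0.0459. On the slide shared by both groups the difference was 1.58, from 2 mice each, and on the other slides it was 0.89.

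The effect of methotrexate on Serpina3n was 0.59 ± 0.56 log2 units smaller on the high than on the low fat diet (95% confidence interval of the difference -1.78 to 0.59, adjusted p = 0.440 by limma), so that the diets were not shown to differ in it. For this difference of effects 0 of 8 members passed, against 26.8% of all genes, and 0 of 8 had an unadjusted p below 0.05, against 40.6%. Ordered by mean, the Serpina3n level was lowest in LFD (1.34 ± 0.09, SD, n = 4), followed by HFD (1.54 ± 0.14, n = 4), HFD MTX50 (2.68 ± 0.90, n = 5) and LFD MTX50 (3.08 ± 0.78, n = 5). The neighbours LFD and HFD overlapped, as did HFD MTX50 and LFD MTX50. The diet alone moved Serpina3n by 0.19 ± 0.42 (adjusted p = 0.745 by limma). The rise in LFD MTX50 did not pass with normexp background modelling (1.45, adjusted p = 0.173) or when the slide entered as a random block (1.88, adjusted p = 0.0697). It passed without each array in turn, with adjusted p from 0.00293 to 0.0190. The summed erythroid markers, low in all LFD MTX50 mice, were 0.46, 0.90, 1.36, 4.56 and 5.88 in HFD MTX50 mice 1 to 5, and their part in the Serpina3n differences was not tested.

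**Figure D1:**
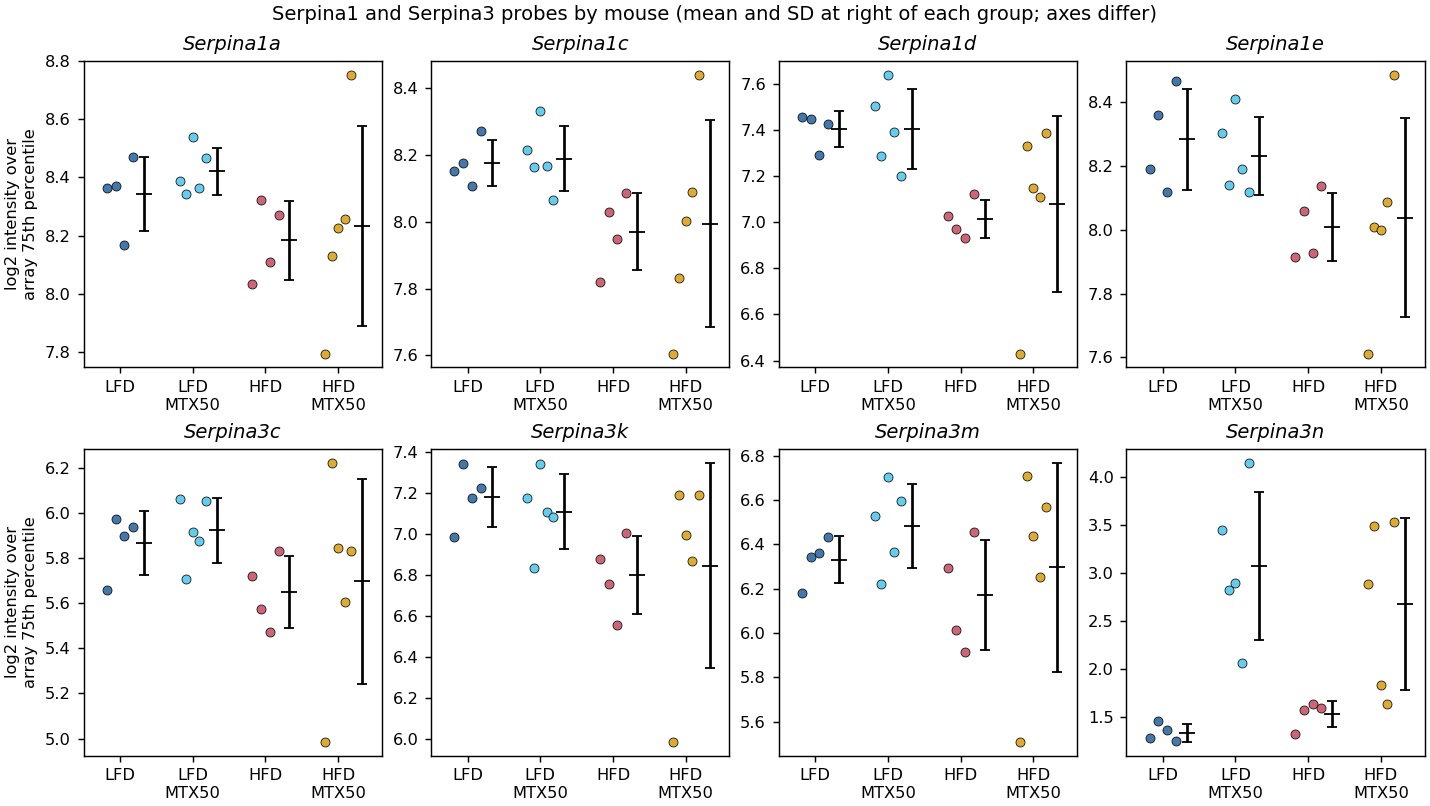
Level of the 8 genes on their brightest probe, in log2 intensity over the 75th percentile of the array, for each mouse of the 4 groups, with the group mean and SD beside the points; the vertical axes differ between genes. Treated and untreated mice of each diet separate in Serpina3n alone, and in the other 7 genes HFD MTX50 mouse 1 is the lowest of all mice.

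None of the other 7 genes passed under methotrexate. In LFD MTX50 against LFD their differences ran from -0.074 (Serpina3k) to 0.15 (Serpina3m) log2 units. On the brightest probes their 95% confidence intervals together ran from -0.49 (Serpina3k) to 0.56 (Serpina3m), so that changes of that size remained possible. The sign of these values is not settled, since 5 of the 8 members were higher with the main scaling and 1 of 8 after normexp background modelling. Serpina1d, for example, was 7.46, 7.45, 7.29 and 7.43 in LFD and 7.51, 7.29, 7.64, 7.39 and 7.20 in LFD MTX50. The treated mice of Serpina1d lay on both sides of the untreated ones. Serpina3c was 5.66, 5.97, 5.89 and 5.94 in LFD and 6.06, 5.71, 5.91, 5.88 and 6.05 in LFD MTX50, a difference of 0.056 ± 0.18, with overlap. The second probes of Serpina1a, Serpina1d and Serpina1e differed by 0.023, 0.049 and -0.12, and none passed. That of Serpina1e had a wider interval, -0.64 to 0.40.

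In HFD MTX50 against HFD the same 7 genes differed by 0.023 (Serpina1c) to 0.13 (Serpina3m) on their brightest probes, and none passed. These small values have no settled sign, since all 8 members were higher with the main scaling, whereas 7 of 8 were lower after normexp background modelling, or once slides were fitted as a fixed block, and 6 of 8 after quantile normalization. On the shared slide Serpina1a differed by -0.23 and on the other slides by 0.23. Serpina3k and Serpina1c changed sign in the same way, from -0.19 to 0.20 and from -0.30 to 0.25.

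**Figure D2:**
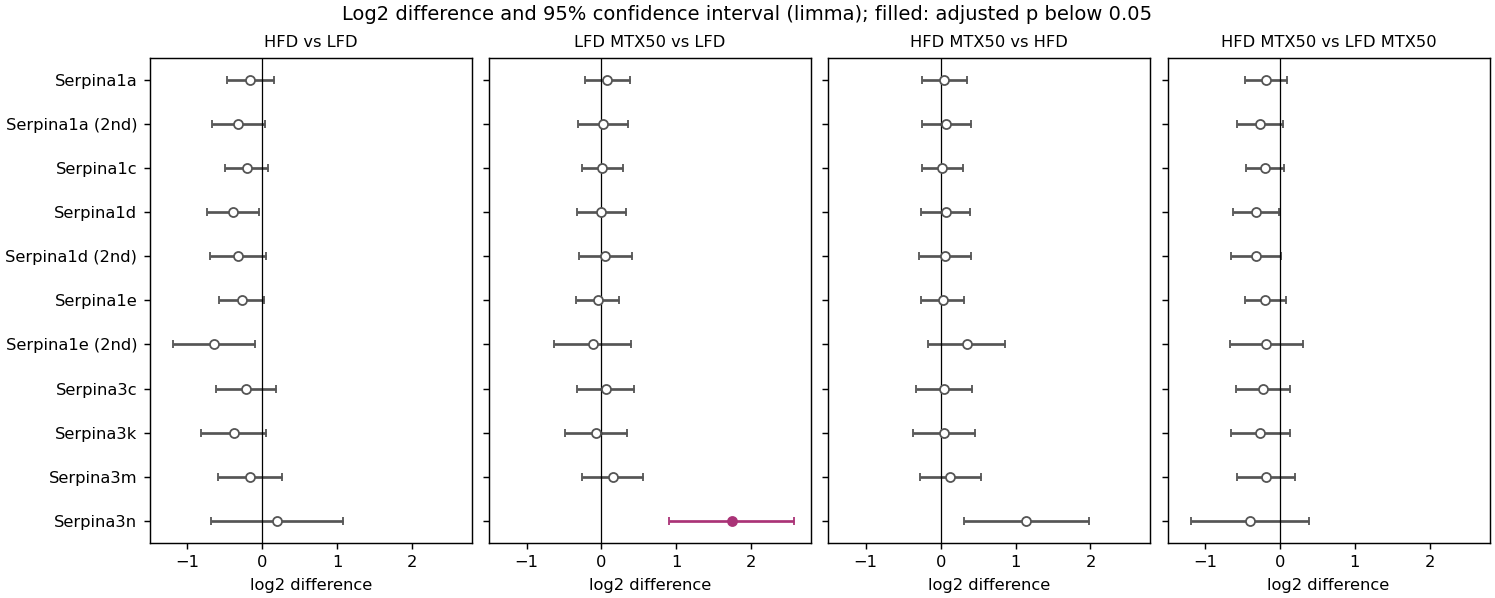
Log2 difference of each of the 11 probes in 4 comparisons, with the 95% confidence interval of the limma model; a filled point has an adjusted p below 0.05. Serpina3n in LFD MTX50 against LFD is the filled point. The intervals of the other genes span 0 under methotrexate, and the estimates lie below 0 for 10 of the 11 probes in HFD against LFD and for all 11 in HFD MTX50 against LFD MTX50.

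On the high fat diet without treatment, 7 of the 8 genes were lower than on the low fat diet on their brightest probe, by 0.16 (Serpina1a) to 0.39 (Serpina1d) log2 units, and 0 of 8 passed by limma, against 28.3% of all genes. Serpina1d alone had an unadjusted p below 0.05, which 42.4% of all genes had. It was 7.03, 6.97, 6.93 and 7.12 in the HFD mice, all below the 4 LFD values given above. Its difference was -0.39 ± 0.16 (1.31-fold lower, adjusted p = 0.0766 by limma, exact permutation p = 0.0286, the smallest that 4 against 4 mice allow). Serpina1c, at 8.15, 8.18, 8.11 and 8.27 in LFD and 7.82, 8.03, 7.95 and 8.09 in HFD, was the other gene whose groups did not overlap. In this comparison 2 of 8 genes had groups that did not overlap, against 40.3% of all genes. Serpina3k, known as contrapsin, was 6.99, 7.34, 7.17 and 7.22 in LFD and 6.88, 6.75, 6.56 and 7.01 in HFD, a difference of -0.38 ± 0.21 (adjusted p = 0.167 by limma) between groups that overlapped.

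The second probes were also lower in HFD. That of Serpina1e was at 7.62, 7.48, 7.34 and 7.63 in the LFD mice and 7.09, 6.81, 6.62 and 6.97 in the HFD mice, and the groups were apart. Its difference was -0.65 ± 0.26 with an adjusted p of 0.0695 by limma, where the brightest probe of the gene gave -0.28 ± 0.14. The second probes of Serpina1a and Serpina1d differed by -0.32 and -0.33, also without overlap, and did not pass either (adjusted p = 0.150 and 0.166 by limma).

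These diet differences depended on the scaling. The median over the 8 genes was -0.21 beside 0.08 over all genes tested, and -0.50 with normexp background modelling, which moved the median of all genes to 0.38. After quantile normalization the median over the 8 genes was -0.014, with 5 lower and 3 higher. With only the 2 groups compared in the model, Serpina1d and Serpina3k passed, which was 2 of 8 genes against 41.7% of all genes, and both also passed without HFD MTX50 mouse 1. Among the treated mice the order was similar, with all 8 genes lower in HFD MTX50 than in LFD MTX50, by 0.19 to 0.40, and 0 of 8 passing by limma against 16.1% of all genes. Groups that do not overlap were found for 0 of 8, against 6.13%, and an unadjusted p below 0.05 for 1 of 8, against 32.8%. After quantile normalization 5 of 8 were lower there. Hepatocyte markers had negative medians in the same comparisons. These were -0.20 in HFD against LFD and -0.47 in HFD MTX50 against LFD MTX50, where the 8 genes had -0.21 in both. The part of hepatocyte content in these differences was not tested.

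The spread between mice was itself uneven. Over the 10 probes other than that of Serpina3n, the SD within a group was 0.069 to 0.16 in LFD, 0.082 to 0.29 in LFD MTX50, 0.083 to 0.25 in HFD and 0.31 to 0.63 in HFD MTX50. The median SD in HFD MTX50 was 0.39, beside 0.27 over all genes in that group. HFD MTX50 mouse 1 was the lowest of its group on 10 of 10 probes, 0.65 below the group mean on average, and without it the median SD was 0.21. In Serpina3k, for example, the HFD MTX50 mice were at 5.99, 7.19, 6.99, 6.87 and 7.19, so that the other 4 mice lay within 0.33 of each other. In Serpina3n the same mouse was at 2.89, the median of its group.

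Array and tissue measures moved with this mouse. Its 75th percentile of 2263 intensity units was the highest of the 18 arrays, and the lowest, 1203, belonged to HFD MTX50 mouse 5, which was the highest of its group on 6 of 10 probes. Its summed hepatocyte markers were 8.69, the lowest of all mice, against at most 9.11 in the other 4 of its group. The most intense member spot reached 59.0 to 77.3% of the scanner's saturation value over the arrays. The part of these measures in the spread was not tested.

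The 11 probes did not group by the gene they are named for. The brightest probes of Serpina1a, Serpina1c and Serpina1e followed each other over the 18 mice with a Pearson r of 0.915 to 0.951. The second probes of Serpina1a and Serpina1e and both probes of Serpina1d formed another set, with r of 0.921 to 0.977. The 2 probes of Serpina1a were less alike (r = 0.724) than the second Serpina1a probe and either Serpina1d probe (r = 0.966 and 0.977). For Serpina1e the 2 probes had r = 0.813, and for Serpina1d r = 0.938. Which of the near-identical Serpina1 copies each probe reads, Serpina1b included, was not tested, and values for single Serpina1 genes are uncertain for that reason.

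Serpina3c, Serpina3k and Serpina3m also moved together (r = 0.907 to 0.933), and Serpina3k was as close to Serpina1d (r = 0.924). After group means were removed, these correlations within the Serpina3 set were 0.915 to 0.961. Serpina3n stood apart from all other member probes, with r of 0.058 to 0.33. These correlations are descriptions over 18 mice of 4 groups and share the scaling of each array. HFD MTX50 mouse 1 was the lowest of all mice in Serpina3c (4.99), Serpina3k (5.99) and Serpina3m (5.51), and in the Serpina1 probes. The part of this mouse in the correlations was not tested, and they were not recomputed without it.

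**Figure D3:**
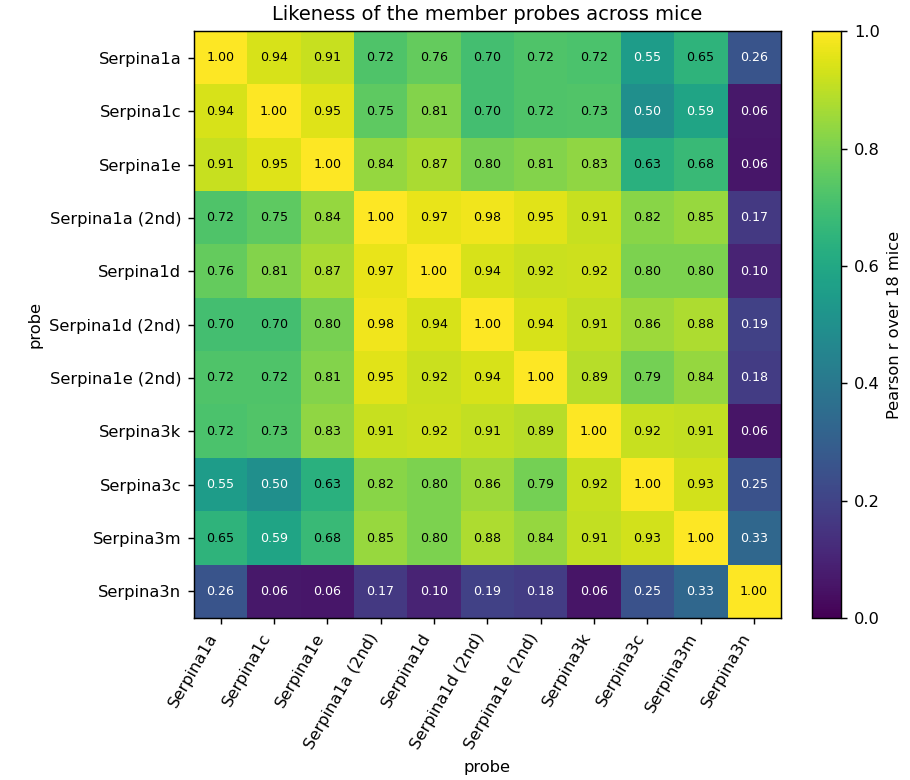
Pearson correlation over the 18 mice between each pair of the 11 probes, written in each cell; (2nd) marks a second probe of a gene. The brightest Serpina1a, Serpina1c and Serpina1e probes come first, then the remaining Serpina1 probes, then Serpina3k, Serpina3c and Serpina3m, and Serpina3n last. The sets are not sharply apart. The brightest Serpina1e and Serpina1d probes have 0.87, and the brightest Serpina1d probe and Serpina3c have 0.80. Serpina3n correlates with none above 0.33.

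Other genes of the Serpina3 cluster rose with Serpina3n. The listed other clade A serpins, 15 genes with a kept probe, held 5 that rose in LFD MTX50, namely Serpina3f, Serpina3i, Serpina3j, Agt (angiotensinogen) and Serpina11, and 0 that fell. Among all genes 17.6% rose and 10.5% fell. The list's median difference was 0.27 beside 0.10 over all genes. Serpina3f was 1.06, 1.24, 1.13 and 1.18 in LFD and 2.99, 2.38, 2.23, 1.59 and 4.02 in LFD MTX50. It rose by 1.49 ± 0.39 (adjusted p = 0.0138 by limma), and the mice kept the order they had in Serpina3n except that mice 2 and 3 changed places. Serpina3i rose by 1.38 ± 0.25 and Serpina3j by 1.29 ± 0.29 (adjusted p = 0.00228 and 0.00599 by limma). Over the 18 mice Serpina3i followed Serpina3n with r = 0.967 and Serpina3j with r = 0.887, and Serpina3f, over the 17 with a value, with r = 0.959.

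On their brightest probes Serpina3b, Serpina3h and Serpina3a did not pass, at -0.16 ± 0.10, 0.27 ± 0.24 and 0.24 ± 0.23. A second, dimmer Serpina3a probe, well above background on 15 arrays, did pass (0.76 ± 0.22, adjusted p = 0.0192 by limma). Its difference of treatment effects passed too (-1.11 ± 0.31, adjusted p = 0.0172 by limma). In HFD MTX50 against HFD the genes of the cluster that rose in LFD MTX50 differed by 0.89 ± 0.41 (Serpina3f), 0.63 ± 0.25 (Serpina3i) and 0.31 ± 0.29 (Serpina3j), and none passed on its brightest probe. A second Serpina3i probe did (0.56 ± 0.17, adjusted p = 0.0455 by limma). Of the 15 genes, 2 rose there and 0 fell, where 4.83% of all genes rose and 6.13% fell. The 2 were Serpina10 (0.72 ± 0.20), which inhibits coagulation factor Xa, and Serpina11 (0.51 ± 0.15). In HFD against LFD 0 of 15 passed, against 28.3% of all genes. Whether the Serpina3n, Serpina3f, Serpina3i and Serpina3j probes read separate transcripts was not tested.

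**Figure D4:**
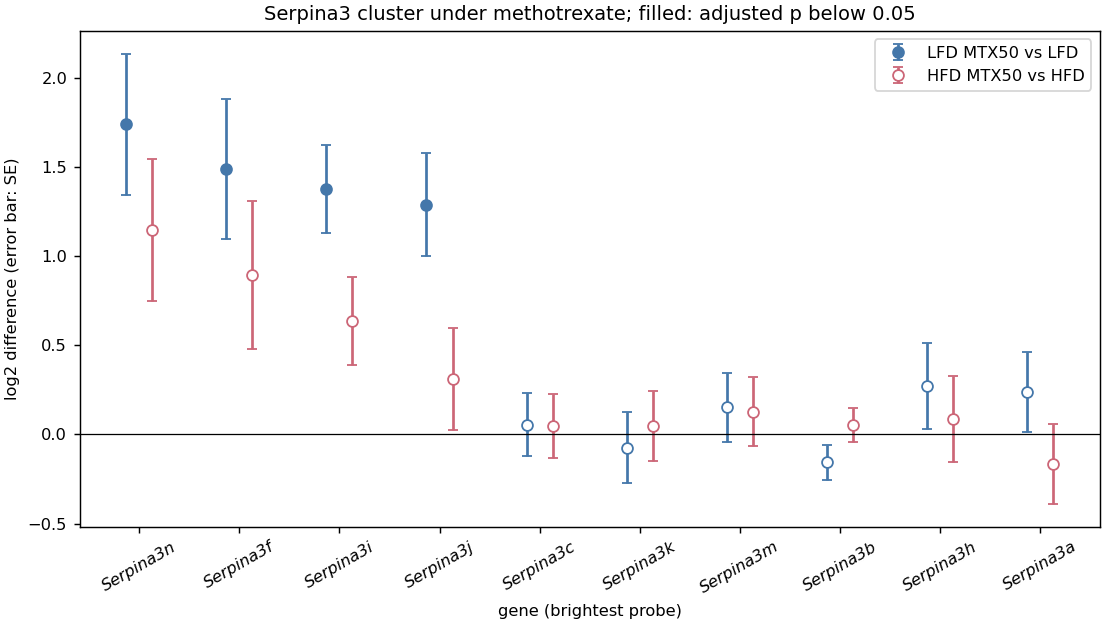
Log2 difference with its SE for methotrexate on each diet, for 10 genes of the Serpina3 cluster on their brightest probe; filled points have an adjusted p below 0.05. Serpina3n, Serpina3f, Serpina3i and Serpina3j rose by 1.29 to 1.74 in LFD MTX50, while Serpina3c, Serpina3k, Serpina3m, Serpina3b, Serpina3h and Serpina3a lay between -0.16 and 0.27.

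The serpins of other clades were mixed. In HFD against LFD, 5 of 16 fell and 1 rose, where 10.4% of all genes fell and 18% rose, with a median of -0.13 beside 0.080 over all genes. Those that fell include Serpinc1 (-0.48 ± 0.11), which is antithrombin, Serpind1 (-0.48 ± 0.11), which is heparin cofactor II, and Serpinf2 (-0.76 ± 0.20), the plasmin inhibitor. Serpine2, a thrombin and plasminogen activator inhibitor, fell by 0.86 ± 0.22, a direction that turned with normexp background modelling (0.057). In LFD MTX50 against LFD, 3 of 16 rose and 4 fell, where 17.6% of all genes rose and 10.5% fell. The serpins that passed there include Serpinb1a (-1.34 ± 0.27), an intracellular inhibitor of neutrophil proteases, and Serpini2 (1.28 ± 0.24). In HFD MTX50 against HFD 2 rose, Serpini2 (0.85 ± 0.24) and Serpinf2 (0.77 ± 0.19), and 0 fell, where 4.83% of all genes rose and 6.13% fell.

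A list of 18 proteases, targets of these or related serpins, had medians of 0.19 in LFD MTX50 and 0.22 in HFD MTX50 beside 0.10 and -0.04 over all genes. Elane, neutrophil elastase and the main target of α1-antitrypsin, fell in LFD MTX50 (-0.56 ± 0.15) and in HFD against LFD (-0.48 ± 0.16). In HFD MTX50 against HFD it differed by 0.31 ± 0.15 and did not pass, and its difference of treatment effects passed (0.87 ± 0.21, adjusted p = 0.0105 by limma). Plg, plasminogen, rose in LFD MTX50 (0.64 ± 0.12) and in HFD MTX50 (0.44 ± 0.12), as did F2, prothrombin (0.35 ± 0.12 and 0.41 ± 0.12). In LFD MTX50 3 of 18 rose and 1 fell, where 17.6% of all genes rose and 10.5% fell. In HFD MTX50 3 rose and 1 fell, where 4.83% rose and 6.13% fell, and in HFD against LFD 1 rose and 2 fell, where 18% rose and 10.4% fell. Elane is itself 1 of 9 neutrophil markers, whose median difference was 1.09 in LFD MTX50 and 1.42 in HFD MTX50. The summed level of these 9 was nevertheless lower in LFD MTX50 (5.68 to 5.87) than in LFD (6.11 to 6.37), without overlap. It was 5.60 to 6.10 in HFD and 5.51 to 6.99 in HFD MTX50. Of these 9, Ngp and Cxcr2 rose in LFD MTX50 while Elane fell, and 0 passed in HFD MTX50 by limma.

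The acute phase list, to which Serpina3n belongs by its known behaviour though it was not counted in it, had similar counts of rising genes under methotrexate on both diets. In LFD MTX50 13 of 25 rose and 0 fell, where 17.6% of all genes rose and 10.5% fell, with a median of 0.84 beside 0.10 over all genes. In HFD MTX50 14 of 25 rose and 0 fell, where 4.83% of all genes rose and 6.13% fell, with a median of 1.02 beside -0.04. Mt2 and Mt1, metallothioneins that bind zinc, rose most (5.15 ± 1.08 and 4.84 ± 0.95 in LFD MTX50, 4.95 ± 1.08 and 4.46 ± 0.95 in HFD MTX50). Lbp, the lipopolysaccharide-binding protein, rose by 1.78 ± 0.28 in LFD MTX50, and Itih3, which stabilises hyaluronan matrix, by 1.60 ± 0.27 in HFD MTX50. In HFD against LFD Saa3, a serum amyloid A, rose (1.03 ± 0.36) and the fibrinogen chains Fga, Fgg and Fgb fell (-0.67 ± 0.21, -0.53 ± 0.14 and -0.46 ± 0.16). Of 8 markers of Kupffer cells and macrophages, Csf1r and Cd68 fell in LFD MTX50 and 0 passed in HFD MTX50 by limma, with median differences over the 8 of 0.059 and 0.60. The summed level of these markers was lower in LFD MTX50 (5.17 to 5.49) than in LFD (5.56 to 6.04), without overlap. In HFD the markers summed to 5.14 to 5.91 and in HFD MTX50 to 5.83 to 6.36. Their part in these changes was not tested. The Serpina1 genes, counted among acute phase proteins in humans, did not pass in any of these comparisons.

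Apcs, serum amyloid P, was the acute phase gene most like Serpina3n. It was -0.26, -0.27, -0.01 and -0.24 in LFD and 2.00, 1.71, 1.75, 0.79 and 2.41 in LFD MTX50, a rise of 1.93 ± 0.40 (adjusted p = 0.00453 by limma). In HFD MTX50 it was 1.76, 1.93, 0.46, -0.13 and 2.25, so that mice 3 and 4 were again low, and its rise there of 1.46 ± 0.40 passed (adjusted p = 0.0317 by limma).

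By correlation over the 18 mice against 19393 genes, those most like Serpina3n were Krtap11-1 (r = 0.997), Olfr1260 (r = 0.978) and Apcs (r = 0.977), with r of 0.995, 0.949 and 0.947 after group means were removed. Krtap11-1 is a keratin-associated protein gene, and its second probe had r = 0.157 with Serpina3n. For Serpina1a the most alike was Med16 (r = 0.950), for Serpina1c Glrx2 (0.947), for Serpina1d Eif1b (0.932) and for Serpina1e Milr1 (0.953). For Serpina3c it was Olfr1535 (0.919), for Serpina3k Nmb (0.928) and for Serpina3m Olfr1535 (0.944). Like those members, Med16, Glrx2, Eif1b, Milr1, Olfr1535 and Nmb were lowest of all mice in HFD MTX50 mouse 1 on their brightest probes. Olfr1535, for example, was at 4.69 there and Nmb at 3.47. The part of this mouse in the likeness was not tested. The third most alike to Serpina1a was Trf, transferrin (0.927), itself a major secreted liver protein. Probes of some of these genes read far apart. In LFD those of Med16 averaged 7.56 and -0.52, those of Glrx2 8.13, 1.57 and -0.75, and those of Milr1 7.73, 7.25 and 3.65. The probes of Nmb (4.75 and 4.53) and Trf (7.96 and 7.74) lay closer. Whether the correlated probes read the genes they are named for was not tested.

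Interleukin-6 signals through STAT3 to acute phase genes. Of 15 genes of interleukin-6 and STAT3 signalling, 7 rose in LFD MTX50 and 0 fell, where 17.6% of all genes rose and 10.5% fell, with a median of 0.95 beside 0.10 over all genes. Among them were Cebpd (1.54 ± 0.38), a transcription factor of the response, Osmr, a receptor of the family, and Socs3 (1.42 ± 0.34), the feedback inhibitor. In HFD MTX50 4 rose and 0 fell, where 4.83 and 6.13% did, with a median of 0.53 beside -0.04, among them the interleukin receptors Il1r1 (1.94 ± 0.37) and Il6ra (1.21 ± 0.34), and Socs3 (1.84 ± 0.34). In HFD against LFD 1 fell, Jak1 (-0.40 ± 0.10), and 0 rose, where 10.4% of all genes fell and 18% rose.

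Serpina1 and several Serpina3 genes depend on hepatocyte transcription factors and, in rodents, on growth hormone. For the lists that follow, 10.4% of all genes fell and 18% rose in HFD, 10.5 and 17.6% in LFD MTX50, and 6.13 and 4.83% in HFD MTX50. Of 13 hepatocyte transcription factors, Hnf4a (-0.55 ± 0.16) and Prox1 (-0.57 ± 0.20), or 2, fell in HFD, a share near that of all genes, and Hnf4a rose in HFD MTX50 against HFD (0.51 ± 0.15). In LFD MTX50 Foxa1 fell (-0.93 ± 0.25) and Foxa3 and Nr5a2 rose. Of 11 genes of growth hormone and STAT5 signalling, 4 rose and 2 fell in LFD MTX50, with Socs2 at 2.68 ± 0.29 and Stat5a at -0.99 ± 0.22. Socs3, which is also in the interleukin-6 list above, is 1 of the 4 that rose. Stat5b fell in HFD (-0.70 ± 0.18). Of 10 male-biased liver genes 8 fell in LFD MTX50 and 2 in HFD MTX50, and of 9 female-biased genes 5 rose in LFD MTX50 and 0 in HFD MTX50, where 1 fell. The male-biased list had a median of -2.58 in LFD MTX50, and the female-biased list one of 0.73, beside 0.10 over all genes. In HFD against LFD 2 of the 10 male-biased genes fell and 3 of the 9 female-biased genes rose. The medians of these lists there were -0.87 and 0.86, beside 0.080 over all genes.

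α1-Antitrypsin is folded and exported through the secretory pathway. Of 15 genes of export and quality control, 3 fell and 0 rose in HFD, where 28.3% of all genes passed, namely Lman1 (-0.43 ± 0.15), the cargo receptor that carries α1-antitrypsin out of the endoplasmic reticulum, Edem1 (-0.39 ± 0.14), which marks misfolded protein for removal, and Sec24a (-0.38 ± 0.12). In LFD MTX50 Canx, calnexin, fell (-0.78 ± 0.22), as did Sec24a (-0.37 ± 0.12), though the mean of the Sec24a probes gave 0.065. In HFD MTX50 0 of 15 passed by limma, against 11% of all genes. The medians of this list were -0.28 in HFD, -0.13 in LFD MTX50 and 0.10 in HFD MTX50, beside 0.080, 0.10 and -0.04 over all genes.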

How the data were processed

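Liver RNA of 18 mice was hybridised to one-colour Agilent arrays, 1 per mouse. The authors read them with Agilent Feature Extraction 10.7.3.1, and the deposited intensity values are processed signals on a linear scale, with the background subtracted but the arrays unscaled against each other.

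From the log2 of each intensity, the 75th percentile of that array's log2 values was taken away. Outlier spots (124 to 294 per array) were left out and spots of a probe averaged. Probes well above background on at least 4 arrays were kept (35738 of 39429). Probes were named by accession through RefSeq GRCm38.p6 (28025 probes, 71.1%), and a gene was read on its brightest probe. The number of arrays limits the precision.

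limma 3.58.1 (R 4.3.3) fitted 1 model with 4 groups, and p-values were adjusted over the kept probes by Benjamini-Hochberg. Serpina3f lacks 1 value, in HFD MTX50 mouse 2. In simulated data, the HFD vs LFD test on 35391 probes recovered 67% of 2-fold and 94% of 4-fold changes. The simulated noise was independent and held no slide effect, so these rates need not hold for groups on separate slides. Exact permutation tests were two-sided. The mice are separate animals. Of all pairs of arrays none was a duplicate (highest r 0.994).

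The members and lists were chosen with earlier results of these data known. Every member is described, with at most 4 genes named per list and comparison, by size among those with adjusted p below 0.05, and the 3 genes most correlated with a member. Serpina3a, Serpina3b, Serpina3h, Ngp, Cxcr2, Cfd, Csf1r, Cd68 and the second probes of other genes were named after their values were seen. The alternatives were normexp (offset 50, on median spot signals, since the files used hold no mean signal), quantile and median scaling, the series' value table, other filters, trend and robust variances, the groups compared alone, the methods' t-test, slide and replicate blocks, the mean of a gene's probes, and leaving out each array.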

Additional observations from a re-analysis of the deposited data

Results flagged for a closer look

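In 52 groups of values, those of each probe whose values are given per mouse, 2 values were set apart from the rest of their group by Dixon's criterion at 95%, where chance sets apart about 1 group in 20. Serpina3k in HFD MTX50 mouse 1 was at 5.99 where the other 4 mice were at 6.87 to 7.19. The same mouse was the lowest of its group on the 10 probes other than that of Serpina3n, as given above. Apcs in LFD mouse 3 was at -0.0076 where the other 3 mice were at -0.27 to -0.24.

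The effect of methotrexate differed between the diets by limma's test of the difference (high minus low fat diet) for 0 of the 8 members and for 11 of the 50 other listed genes named above, against 26.8% of all genes. The difference was positive for Elane (0.87), Serpinb1a (1.12), Jak1 (0.43), Stat5a (1.10), Foxa1 (1.27), Canx (0.89), Csf1r (0.97) and Cd68 (1.46). It was negative for Agt (-0.81), Socs2 (-1.74) and Cfd (-3.74). With normexp background modelling 0 genes passed this test. Agt, Serpinb1a, Jak1 and Canx no longer passed without some of the arrays, and Elane, Stat5a, Foxa1 and Socs2 passed without each array in turn.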

How the results depend on the processing

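Of the 8 members, 0 passed in HFD vs LFD, but 1 with scaling to the median of probes above background, 2 with the groups compared alone, 1 with the adjusted methods' t-test, and 0 to 2 without each array (2 without HFD MTX50 mouse 1). In LFD MTX50 vs LFD 1 passed, but 0 with normexp background modelling or a random slide block. In HFD MTX50 vs HFD 0 passed, and 0 to 1 without each array. In HFD MTX50 vs LFD MTX50 0 passed, but 1 (Serpina1d) after quantile normalization. In the difference of treatment effects 0 passed under every setting run. The methods describe their t-test for other measures and name no test for the arrays. At the study's own array threshold of p and fold, this t-test called 0, 1, 0 and 0 members in the 4 comparisons of groups. Of 678 values of the member probes under other settings, 77 changed sign, none of them called under either setting, while 2 lost and 12 gained a call. Of 990 without an array, 69 changed sign, 0 lost and 8 gained a call. Of 4002 values of other named genes 504 lost their call, and 4 turned direction: Serpine2 under normexp in HFD vs LFD (0.057) and, against LFD, in LFD MTX50 (0.39), Cela2a under normexp in HFD MTX50 vs LFD MTX50 (0.54), and Sec24a with the mean of its probes in LFD MTX50 vs LFD (0.065). The causes were not tested.

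Over all genes the calls numbered 5555 in HFD vs LFD, 5503 in LFD MTX50 vs LFD, 2148 in HFD MTX50 vs HFD, 3158 in HFD MTX50 vs LFD MTX50 and 5243 in the difference of effects. In the same order normexp gave 2, 339, 0, 1 and 0, the random slide block 380, 340, 1858, 18 and 1249, and the methods' threshold 512, 752, 133 and 332. The groups compared alone gave 0 in HFD MTX50 vs HFD and 9 in HFD MTX50 vs LFD MTX50, the adjusted t-test 0 and 113, and the fixed slide block 1429 in the former. Quantile normalization gave 3668 in LFD MTX50 vs LFD and 3332 in the difference. Higher genes were 63.4% of the calls in HFD vs LFD and 62.7% of those in LFD MTX50 vs LFD, but 47.4 and 45.3% after quantile normalization and 44.8 and 44.7% with median scaling.

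Mice with the same replicate number did not pair: the correlation of their deviations was over 0.1 in 8 of 25 pairs, from -0.38 to 0.27. With the replicate block 0, 1, 0, 0 and 0 members passed, and 1013 genes in HFD MTX50 vs HFD. The fixed slide block could be fitted for HFD MTX50 vs HFD alone, and the groups compared alone and the t-tests were not run for the difference of effects.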
